A study of Mus musculus with 2 samples.

Results

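The genes described here are the Hox genes of the HoxC and HoxD clusters that belong to paralog groups 1 to 9. They were taken by name from the deposited table, in which 10 of 24340 genes are members: Hoxc4, Hoxc5, Hoxc6, Hoxc8 and Hoxc9 on chromosome 15, and Hoxd1, Hoxd3, Hoxd4, Hoxd8 and Hoxd9 on chromosome 2. The rule uses gene names and no measured value, although the family was picked with earlier results of these data known. RNA-seq compared 1 sample of wild-type trunk with 1 sample of Aldh1a2-/- trunk, both from mouse embryos at embryonic day 8.5. Aldh1a2 encodes the enzyme that makes retinoic acid (RA) in trunk mesoderm, and the Aldh1a2-/- embryos, bred from heterozygous parents, carry the null allele in all cells and lack trunk RA synthesis. The sampled trunk spans the somite-bearing axis, without head, heart or the caudal progenitor zone. The methods describe 2 trunks for each genotype, whereas the table holds 1 value for each, so no spread between embryos can be given and no difference below has a replicate check. Library depth was estimated at 30165000 fragments for wild type and 31664000 for Aldh1a2-/-. The method could return only depths of this order, so like depth is not shown by it.

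Hox genes encode homeodomain transcription factors that give cells their position along the head-to-tail axis. Each cluster is ordered, so that genes at its 3′ end (low group numbers) come on early and reach far forward, whereas genes at its 5′ end (high group numbers) come on later and stay further back. RA acts on many 3′ Hox genes through response elements near the clusters, and caudal signals (FGF, Wnt and Cdx factors) favor the 5′ genes, which makes these clusters a usual readout of RA in the trunk.

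Levels are in FPKM (fragments scaled by transcript length and by the number of mapped fragments of the sample), a unit that allows levels of different genes to be set side by side. A gene is called measured when it was above 0.5 FPKM in both samples, and higher or lower when its log2 ratio (Aldh1a2-/- divided by wild type) was above 0.85 or below -0.85. The floor and the cutoffs are those of the study. A gene whose FPKM is exactly 0 in a sample is given as listed at 0, with no fold, since such a value may be a failed estimate rather than a lack of fragments.

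The HoxC and HoxD genes went in both directions in Aldh1a2-/- trunk. Of the 10 members, 6 were measured: 3 were higher (Hoxc9, Hoxd1 and Hoxd3), 1 was lower (Hoxd4) and 2 were within the cutoffs (Hoxc4 and Hoxc8). Hoxc6 and Hoxd8 were seen in wild type alone and stood at 0 in the other sample, Hoxc5 was the other way round, and Hoxd9 was listed at 0 in both. Over all 9506 measured genes, 23.6% were higher and 22.0% were lower, and with 6 members the counts of 3 and 1 are not read as particular to the family. A listing at 0 in Aldh1a2-/- was found for 12.9% of the 11376 genes that passed the floor in wild type, and for 2 of 8 such members. A listing at 0 in wild type was found for 6.14% of the 10484 genes that passed it in Aldh1a2-/-, and for 1 of 7 such members. In both samples 45.3% of all genes were listed at 0. The median log2 ratio of the 6 measured members was 0.46, and that of all measured genes was 0.02.

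**Figure D1:**
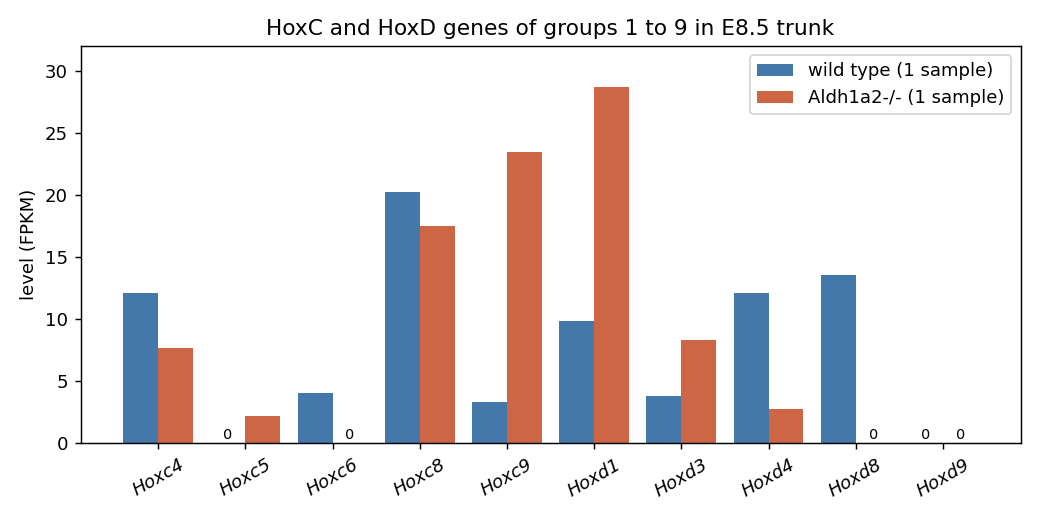
Levels of the 10 HoxC and HoxD genes in FPKM (vertical axis), with 1 blue bar for the wild-type sample and 1 orange bar for the Aldh1a2-/- sample of each gene. Hoxc9 and Hoxd1 stand highest in Aldh1a2-/- (23.4 and 28.7 FPKM), and Hoxc8 and Hoxd8 in wild type (20.2 and 13.5 FPKM).

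Sequences at the 5′ side of HoxD genes are shown, because these genes lay on opposite sides within 1 cluster: Hoxd4 and Hoxd8 were lower or listed at 0 in Aldh1a2-/-, and Hoxd1 and Hoxd3 were higher. Each is the run of 250 bases before the RefSeq start of the gene on GRCm38.p6 (the mm10 build), all on the plus strand: chr2:74721728-74721977 for Hoxd4, chr2:74704365-74704614 for Hoxd8, chr2:74711743-74711992 for Hoxd3 and chr2:74762730-74762979 for Hoxd1. Capitals mark half-sites of RA response elements (AGGTCA or AGTTCA or GGGTCA or GGTTCA, on either strand).
Hoxd4: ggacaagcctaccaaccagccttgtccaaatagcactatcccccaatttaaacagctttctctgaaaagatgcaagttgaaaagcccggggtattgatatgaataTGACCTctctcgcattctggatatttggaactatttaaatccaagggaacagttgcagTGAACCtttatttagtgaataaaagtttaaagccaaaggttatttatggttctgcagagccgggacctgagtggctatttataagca
Hoxd8: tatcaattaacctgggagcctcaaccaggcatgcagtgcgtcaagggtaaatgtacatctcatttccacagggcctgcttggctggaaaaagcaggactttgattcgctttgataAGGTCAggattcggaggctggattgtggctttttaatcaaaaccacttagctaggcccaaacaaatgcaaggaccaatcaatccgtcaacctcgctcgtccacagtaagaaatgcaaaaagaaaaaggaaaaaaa
Hoxd3: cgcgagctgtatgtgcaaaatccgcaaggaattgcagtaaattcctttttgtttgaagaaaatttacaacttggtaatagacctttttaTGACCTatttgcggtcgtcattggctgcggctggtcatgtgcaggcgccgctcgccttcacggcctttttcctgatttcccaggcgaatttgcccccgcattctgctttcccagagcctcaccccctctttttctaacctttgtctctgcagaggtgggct
Hoxd1: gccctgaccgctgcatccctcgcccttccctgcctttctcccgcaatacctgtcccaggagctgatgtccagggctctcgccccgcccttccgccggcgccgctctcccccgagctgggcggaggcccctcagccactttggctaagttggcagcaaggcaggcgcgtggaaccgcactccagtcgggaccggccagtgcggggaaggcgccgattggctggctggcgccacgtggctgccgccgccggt

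The Hoxd4 stretch holds 2 half-sites, which begin 145 and 87 bases before the start, the Hoxd8 stretch holds 1 (135 bases before the start) and the Hoxd3 stretch holds 1 (161 bases before the start). The Hoxd1 stretch holds none. Of the other stretches searched, that of Hoxc4, within the cutoffs, holds 2 half-sites, and that of Hoxd9, listed at 0 in both samples, holds 0. Hoxd8 and Hoxd3, which lay on opposite sides, thus hold 1 half-site each. Whether half-sites go with the direction of change was not tested, since few genes have both a stretch and a direction. In 38.6% of 32851 such stretches over the mouse genome there is at least 1 half-site, so these matches are common. A full response element has 2 half-sites in the same orientation, 1, 2 or 5 bases apart (DR1, DR2 and DR5). None of the stretches of Hoxc4, Hoxd1, Hoxd3, Hoxd4, Hoxd8 and Hoxd9 held an exact match, as was true of nearly all mouse genes (0.164% held a DR1, 0.174% a DR2 and 0.0883% a DR5). The study's own elements could hold up to 2 mismatches, so this search was stricter. RefSeq promoter sequences matched 6 of the 10 members, and those of Hoxc5, Hoxc6, Hoxc8 and Hoxc9 were not used here. These are matches of letters in a short window and say nothing of elements farther away. The Hoxd1 stretch was also the richest of the 4 in G and C (71.6%, against 40.4% for Hoxd4, 44.4% for Hoxd8 and 49.2% for Hoxd3). The stretches of Hoxc4 and Hoxd9, which are not shown, held 62% and 65.2%.

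At the 3′ end of HoxD, Hoxd1 belongs to the labial-like genes of group 1 and in mouse is known for its part in the wiring of pain-sensing neurons. Its level was 9.80 FPKM in wild-type trunk against 28.7 FPKM without Aldh1a2, which made it the most abundant of the 10 genes in Aldh1a2-/- trunk. The log2 ratio was 1.55, a 2.93-fold higher level (mm10 chr2:74762980-74765142). Of the 9506 measured genes, 1147 had a larger ratio.

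Hoxd3 shapes the atlas and axis vertebrae of the neck. Wild-type trunk gave 3.79 FPKM and Aldh1a2-/- trunk 8.28 FPKM, a log2 ratio of 1.13 or a 2.18-fold higher level. Hoxd4, the next gene in cluster order, patterns the axis vertebra and the posterior hindbrain and is known for an RA-responsive enhancer on its 3′ side. Here wild-type trunk gave 12.1 FPKM and Aldh1a2-/- trunk 2.72 FPKM, with a log2 ratio of -2.15 (a 4.44-fold lower level), and 567 measured genes had a smaller ratio. Hoxd3 and Hoxd4 thus lay on opposite sides although they follow each other in cluster order.

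The levels of Hoxd3 and Hoxd4 rest on how the authors' processing divided the fragments of a shared locus. The table gives both genes, along with the antisense gene Hoxd3os1 and the microRNA gene Mir10b, the same locus (mm10 chr2:74710044-74748271). In GENCODE M21 Hoxd4 (74721978-74729160) lies inside the annotated span of Hoxd3 (74711927-74748271), and their exons share 0 bases with each other. The Hoxd3 stretch shown above, taken at the start of that span, thus lies 5′ of Hoxd4. A further annotated transcript unit on the same strand, Gm28230, which is not in the table, shares 2225 exon bases with Hoxd3 and 1154 with Hoxd4. Hoxd3os1, on the opposite strand, shares 347 exon bases with Hoxd3 and was listed at 0 in both samples. The levels of Hoxd3 and Hoxd4 added together came to 15.8 FPKM for wild type against 10.998 FPKM for Aldh1a2-/-, or -0.53 as a log2 ratio. Their separate values carry this uncertainty, and Hoxc5 likewise has the same locus in the table as the microRNA gene Mir615, which was listed at 0 in both samples and shares 0 exon bases with it.

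Hoxd8 and Hoxd9 lie further 5′. Hoxd8 acts with Hoxb8 and Hoxc8 in thoracic and lumbar identity, and it was the most abundant HoxD gene in wild-type trunk, at 13.5 FPKM, while it was listed at 0 in Aldh1a2-/- (mm10 chr2:74704615-74707932). As estimated from the steps between the lowest FPKM values, the wild-type level stands for about 146 to 993 fragments, depending on which of its 3 annotated transcripts is taken. Hoxd9, which works with its paralogs in the lumbosacral axis and the proximal forelimb, was listed at 0 in both samples.

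In HoxC, the gene nearest to the 3′ end is Hoxc4, known for roles in the thoracic vertebrae and the oesophagus. It was at 12.1 FPKM in wild type, close to the median of all genes above 0.5 FPKM in that sample (11.1 FPKM), and at 7.61 FPKM in Aldh1a2-/-. Its log2 ratio of -0.67 lies within the cutoffs. Hoxc5, which acts with Hoxa5 in motor neurons of the phrenic nerve, was listed at 0 in wild type and was at 2.16 FPKM in Aldh1a2-/-. Hoxc6, a gene of the forelimb level and its motor neurons, was seen in wild type alone, at 4.05 FPKM, and was listed at 0 in the other sample. These neighbors were thus each detected in a different sample.

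Hoxc8, which sets vertebral identity around the last ribs and the identity of brachial motor neurons, was the most abundant member in wild type and the steadiest between the samples. Its level was 20.2 FPKM in wild-type trunk against 17.5 FPKM without Aldh1a2, or -0.21 as a log2 ratio (mm10 chr15:102990539-102994254). The 95% exact binomial (Clopper-Pearson) interval of this ratio, from about 1017 and 925 fragments, was -0.34 to -0.08. Such an interval covers counting error only and not the spread between embryos or libraries, and reads without molecular identifiers are not separate molecules.

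Hoxc9, the gene that sets thoracic motor neuron columns and keeps forelimb programs out of the thoracic cord, had the highest ratio among the 6 measured HoxC and HoxD genes. Wild-type trunk gave 3.25 FPKM and Aldh1a2-/- trunk 23.4 FPKM (log2 ratio 2.85, 7.20-fold higher, mm10 chr15:102977032-102984444). About 213 and 1612 fragments stand behind these values, and 315 measured genes had a larger ratio. In Aldh1a2-/- the order of Hoxc8 and Hoxc9 was turned round, with Hoxc9 above Hoxc8. Markers of the caudal progenitor zone, where group 9 genes are strongly expressed, summed to 28.9 and 111.5 FPKM in the same samples, and their part in the Hoxc9 level was not tested.

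**Figure D2:**
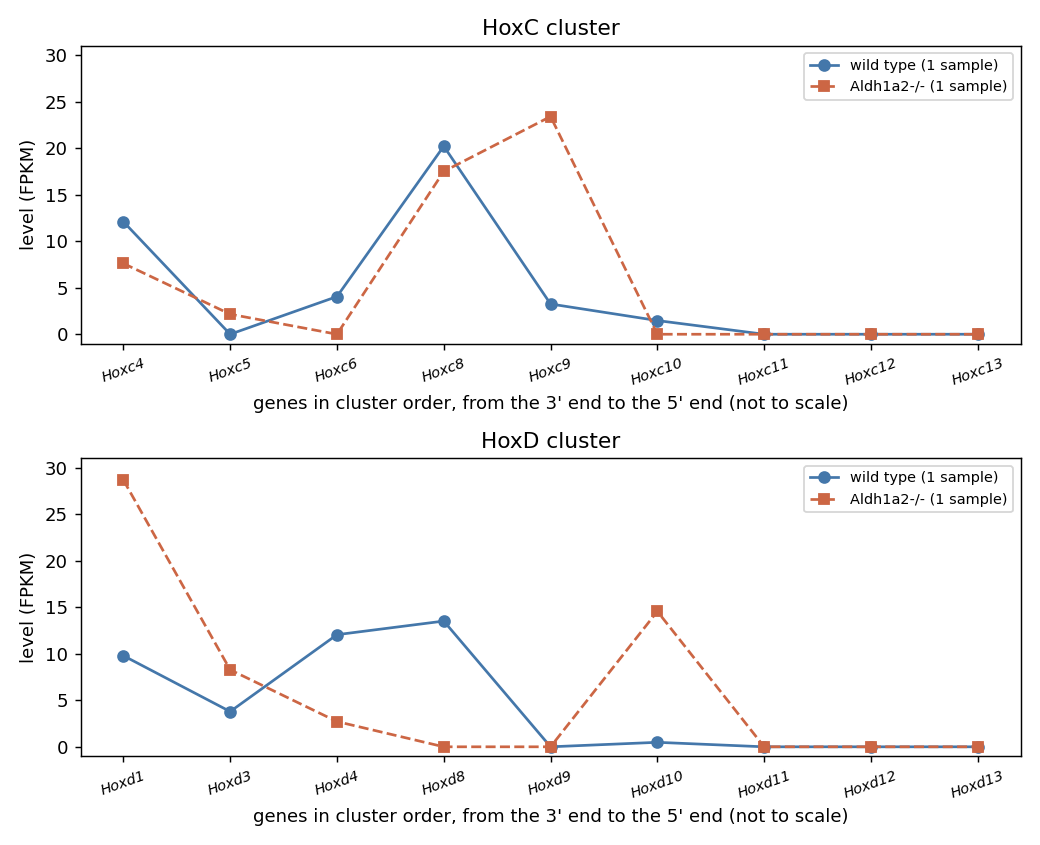
Levels in FPKM (vertical axis) of all Hox genes of the HoxC (top) and HoxD (bottom) clusters, placed in order from the 3′ end (left) to the 5′ end (right), with circles for the wild-type sample and squares for the Aldh1a2-/- sample; the lines only join the points. In HoxC the highest point moves from Hoxc8 to Hoxc9, and in HoxD the highest points are Hoxd8 and Hoxd4 in wild type and Hoxd1 and Hoxd10 in Aldh1a2-/-.

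Levels were also added up over each cluster. The 5 HoxC members summed to 39.6 FPKM for wild type against 50.7 FPKM for Aldh1a2-/-, and the 5 HoxD members to 39.2 and 39.7 FPKM. All 10 together came to 78.8 and 90.4 FPKM, a log2 ratio of 0.20. Without Hoxc9 the sums were 75.5 and 67.0 FPKM, a log2 ratio of -0.17, so the direction of the whole sum changed when that gene was left out. Hoxd1 rose by nearly as much (18.9 FPKM, against 20.2 FPKM for Hoxc9), which is also more than the whole sum rose. The direction of the whole sum thus depends on Hoxc9 and on Hoxd1 each. Within HoxC, Hoxc8 made up 51.0% of the summed level in wild type and 34.5% in Aldh1a2-/-, and Hoxc9 8.21% and 46.2%. Within HoxD, Hoxd1 made up 25.02% and 72.3%, Hoxd4 30.8% and 6.84%, and Hoxd8 34.5% and 0%. By position, members of groups 1 to 5 summed to 37.7 and 49.5 FPKM and those of groups 6 to 9 to 41.0 and 40.9 FPKM. Groups 1 to 5 held genes past both cutoffs (Hoxd1 and Hoxd3 higher, Hoxd4 lower). In groups 6 to 9 Hoxc9 was the only gene past a cutoff, with Hoxc6 and Hoxd8 listed at 0 in Aldh1a2-/-.

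The genes of groups 10 to 13 mark the 5′ limit of expression in each cluster. Of these 8 genes, 6 were listed at 0 in both samples. Hoxc10, next to Hoxc9, was seen in wild type alone, at 1.47 FPKM. Hoxd10, which patterns the lumbar cord, was under the floor in wild type, at 0.482 FPKM, and reached 14.6 FPKM in Aldh1a2-/-. The gene between Hoxd8 and Hoxd10, Hoxd9, was listed at 0 in both samples, and Hoxd8 was listed at 0 in Aldh1a2-/-. Such listings are not read as absence, so no gap in expression along HoxD is called.

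Of the other rows within 100 kb of the clusters, none of the 4 around HoxC was detected in either sample, among them Hotair and the microRNA genes Mir196a-2 and Mir615. Around HoxD, 7 such rows are in the table. Haglr, a long noncoding RNA gene between Hoxd3 and Hoxd1, was seen in wild type alone, at 4.68 FPKM, and LOC102634401, which has the same locus, was at 8.49 and 8.81 FPKM. On the 3′ side of the cluster, Mtx2, which encodes a mitochondrial outer membrane protein, was at 20.1 and 6.36 FPKM (log2 ratio -1.66), lower where its neighbor Hoxd1 was higher. On the 5′ side, Lnp was at 4.06 and 5.36 FPKM (0.40), and Evx2 was listed at 0 in both samples.

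**Figure D3:**
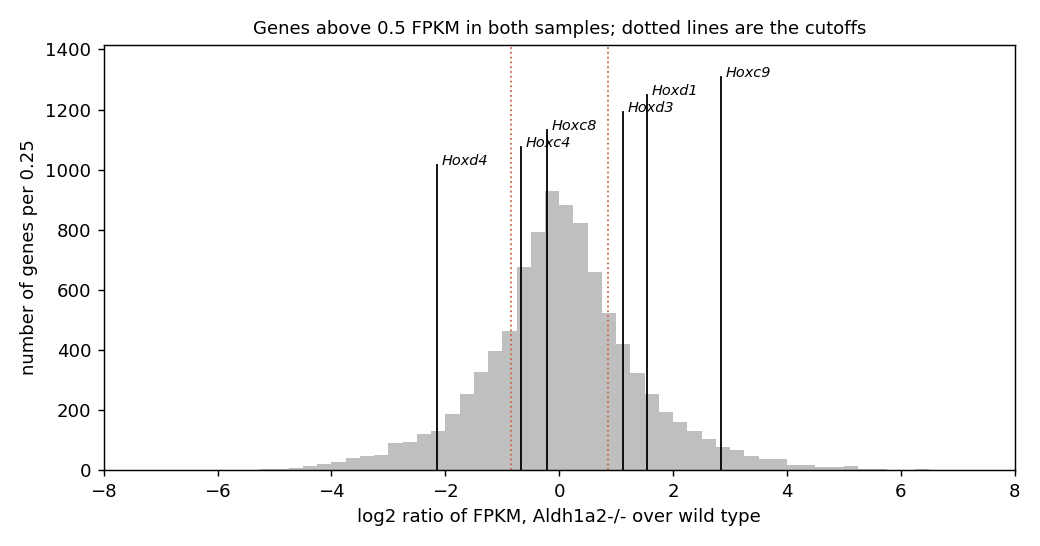
Number of genes (vertical axis) by log2 ratio, Aldh1a2-/- divided by wild type (horizontal axis, equal bins), for the 9506 measured genes, with black lines at the 6 measured HoxC and HoxD genes and dotted lines at the cutoffs of -0.85 and 0.85. Hoxc4 and Hoxc8 lie inside the dotted lines, Hoxd4 (-2.15) to the left, and Hoxd3 (1.13), Hoxd1 (1.55) and Hoxc9 (2.85) to the right.

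Ratios past the cutoffs were common at these levels. Among measured genes with a geometric mean of 5 to 10 FPKM over the samples, where Hoxc4, Hoxc9, Hoxd3 and Hoxd4 lie, 27.4% were lower and 29.3% were higher. At 10 to 20 FPKM, where Hoxc8 and Hoxd1 lie, these shares were 20.6% and 24.7%. The median size of the log2 ratio, without regard to sign, was 1.34 for the 6 members and 0.75 for all measured genes.

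A listing at 0 was also more frequent at low levels. Of the 2155 genes at 10 to 20 FPKM in wild type, the band of Hoxd8, 5.15% were listed at 0 in Aldh1a2-/-. Of the 1836 genes at 2 to 5 FPKM in wild type, the band of Hoxc6, 24.9% were. Of the 1471 genes at 2 to 5 FPKM in Aldh1a2-/-, the band of Hoxc5, 11.1% were listed at 0 in wild type. Even at 50 FPKM or more in wild type, 33 of 1664 genes were listed at 0 in Aldh1a2-/-. None of 27 core proteasome and chaperonin subunit genes, a list chosen after values had been seen, was at 0 in either sample. For Hoxc5, Hoxc6 and Hoxd8 the listing is therefore given as it stands, and not as absence.

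**Figure D4:**
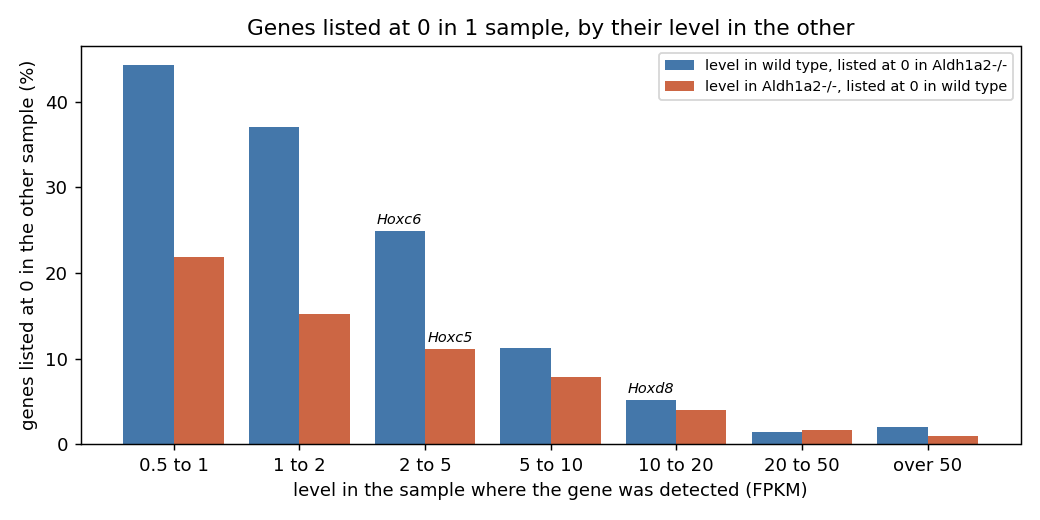
Share of genes listed at 0 in one sample (vertical axis, percent) by their FPKM in the other sample (horizontal axis, bands), in blue for genes detected in wild type and in orange for genes detected in Aldh1a2-/-. The bars fall from 44.3% and 21.9% at 0.5 to 1 FPKM to 5.15% and 3.996% at 10 to 20 FPKM, and the bands of Hoxc6, Hoxc5 and Hoxd8 are marked.

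Paralogs carry near-identical homeodomains and share functions, so each member was set beside the HoxA and HoxB genes of its group. There are 17 such genes, of which 13 were measured, with 5 past the upper cutoff and 4 past the lower one. Over all measured genes 23.6% were higher and 22.0% were lower. The counts of 5 and 4 are for HoxA and HoxB together and do not show how each cluster went. As for Hoxd3 and Hoxd4, the table gives Hoxa3, Hoxa4, Hoxa5 and Hoxa6 a single locus, and Hoxb5 and Hoxb6 another, so the values of these 6 genes share that limit. In group 1, Hoxd1 was higher, whereas Hoxb1 was within the cutoffs, at 28.7 FPKM in wild type against 17.4 FPKM. In group 3, Hoxd3 lay opposite to Hoxb3 (11.8 and 6.46 FPKM), and Hoxa3 was at 7.70 and 0.108 FPKM.

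Group 4 is the only one of these groups with a gene in all 4 clusters that was measured in each. Hoxd4 (12.1 and 2.72 FPKM) and Hoxa4 (16.0 and 2.55 FPKM) were lower in Aldh1a2-/-, and Hoxc4 (12.1 and 7.61 FPKM) and Hoxb4 (12.96 and 16.3 FPKM) were within the cutoffs. In group 5, Hoxa5 and Hoxb5 were seen in wild type alone, at 20.7 and 30.6 FPKM, and in Aldh1a2-/- trunk Hoxc5, at 2.16 FPKM, was the one detected gene of the group.

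Groups 6, 8 and 9 also differed between clusters. Hoxb6 was at 6.18 and 22.8 FPKM, whereas Hoxc6 was detected in wild type alone. Hoxb8 was at 6.56 and 17.2 FPKM, Hoxc8 at 20.2 and 17.5 FPKM, and Hoxd8 at 13.5 and 0 FPKM. In group 9, Hoxc9 was higher, Hoxb9 was at 36.1 and 56.6 FPKM (within the cutoffs), Hoxa9 was lower (9.46 and 1.93 FPKM), and Hoxd9 was listed at 0. The difference between paralogs within a group was not tested, since each gene has 1 value for each genotype.

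**Figure D5:**
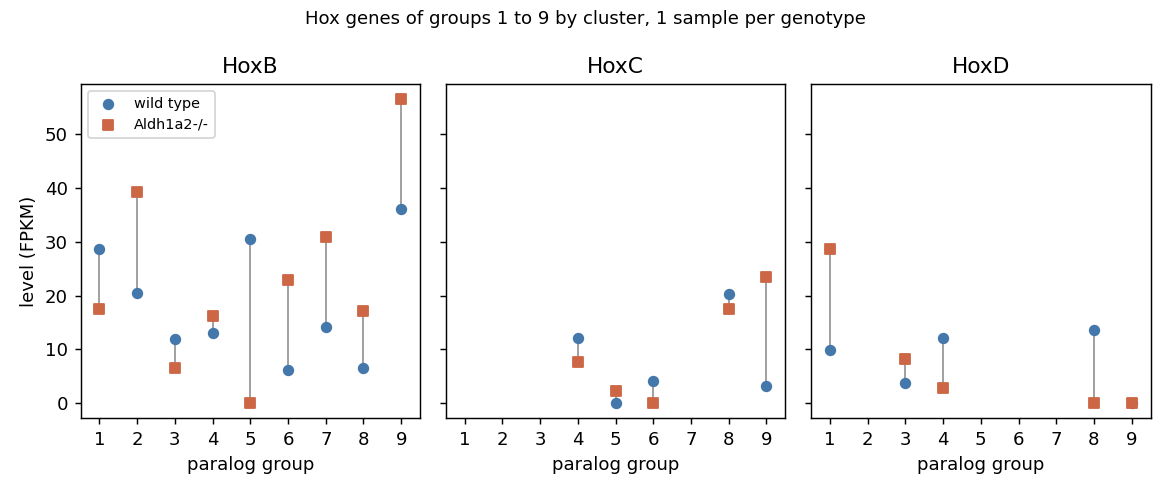
Levels in FPKM (vertical axis) of Hox genes of paralog groups 1 to 9 (horizontal axis) in the HoxB, HoxC and HoxD clusters, with circles for the wild-type sample, squares for the Aldh1a2-/- sample and a gray line between them. The HoxD panel holds genes past both cutoffs, such as Hoxd1 (9.80 and 28.7 FPKM) and Hoxd4 (12.1 and 2.72 FPKM). In the HoxC panel Hoxc9 (3.25 and 23.4 FPKM) was the only gene past a cutoff.

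Genes that act on or with these Hox genes also went both ways, as did measured genes at large (22.0% lower and 23.6% higher). Of 15 cofactor and caudal regulator genes 11 were measured, 3 were lower and 3 were higher, which is not read as particular to the list. Meis1, which encodes a TALE homeodomain partner of Hox proteins, was lower (45.8 FPKM in wild type against 7.33). Cdx2, a caudal factor that activates 5′ Hox genes, was higher (9.32 and 36.7 FPKM), as was Evx1 (3.54 and 10.3 FPKM), a homeobox gene next to the HoxA cluster. Of 19 Polycomb and trithorax genes, which keep Hox clusters silent or active, 17 were measured, 4 were higher and 2 were lower. These counts too are not read as particular to the list. Ezh1, an H3K27 methyltransferase gene, was higher (1.15 and 7.64 FPKM), and Bmi1, which encodes a part of a Polycomb repressive complex, was lower (20.7 and 7.34 FPKM). Of 11 genes for RA receptors and RA enzymes 7 passed the floor, with 4 below the lower cutoff and 0 above the upper one, among them the targeted gene Aldh1a2 at 128.1 and 11.7 FPKM, and 3 others were listed at 0 in Aldh1a2-/- only.

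Markers of other tissues differed between the samples, and a bulk sample cannot tell fewer cells of a type from less RNA per cell. With 1 sample for each genotype, a difference in dissection cannot be told apart from a difference in genotype. Of 8 caudal progenitor markers, whose zone was to be removed and where 5′ Hox genes are strongly expressed, 3 were measured and 2 were higher. Tbx6 and Fgf17 were listed at 0 in wild type only, Cyp26a1 was seen in wild type alone (2.58 FPKM), Wnt3a and Msgn1 were at 0 in both, and the list summed to 28.9 and 111.5 FPKM. All 9 measured of 10 yolk sac endoderm markers (sums of 456 and 6375 FPKM) and all 5 measured of 8 red blood cell markers (299.9 and 5859 FPKM) were higher. Of 9 somite markers 5 were measured, 4 were lower and 1 was higher (308.9 and 46.2 FPKM). Spinal neural tube markers (3 lower and none higher of 6 measured) summed to 89.1 and 56.0 FPKM, and those of lateral plate and forelimb field (4 higher and 1 lower of 7 measured) to 138.8 and 217.8 FPKM. Of 9 heart markers 2 were measured and both were higher (sums of 18.6 and 53.5 FPKM), with Myl2, Nppa and Nkx2-5 at 0 in both samples. Actc1, under the floor in Aldh1a2-/-, went the other way (6.13 and 0.053 FPKM). Of 9 forebrain and midbrain markers 7 were at 0 in both, and the list summed to 7.04 and 1.98 FPKM. The part of these tissues in the levels of the HoxC and HoxD genes was not tested.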

How the data were processed

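The authors deposited 1 table (mm10) that gives FPKM per gene for 2 samples, made by the tools that the submitters' processing notes name without versions (STAR, Cufflinks and Cuffdiff); the paper's methods name TopHat. The labels describe both a total RNA kit and a poly(A) selection kit, with single reads of 75 bases. The other columns hold the authors' own fold changes, p-values and q-values and were not used. From the FPKM the log2 ratio was computed without a pseudocount, with the floor of 0.5 FPKM and the cutoffs of -0.85 and 0.85. Counts are absent from the table. The steps of low FPKM values in genes with 1 transcript longer than 1500 bases (20 genes in each sample, mean fragment length taken as 200 bases) put the wild-type library at about 30165000 fragments and the Aldh1a2-/- library at 31664000, from which fragments per gene were estimated with GENCODE M21 lengths. Steps were sought only within a fixed window, the same for both samples, so the depths could fall only in a limited range. Fragment numbers and the counting interval rest on this estimate.

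Each genotype has 1 sample, so differences were described without tests. All 10 members are named, with rows within 100 kb of the clusters, paralogs, Aldh1a2, and from each other list up to 3 measured genes with the largest ratios (marker lists are given whole, by counts and sums). Some genes that this rule names are not reported here. The members and lists were chosen with earlier results of these data known. RefSeq protein sequences, which the plan included, were not used here. Alternatives were other floors, pseudocounts, scalings and cutoffs, and genes with status OK alone. The ratio script was tested on simulated data. Python 3.11.15, numpy 2.4.6, pandas 2.3.3, scipy 1.17.1 and matplotlib 3.10.9 were used.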

Additional observations from a re-analysis of the deposited data

How the results depend on the processing

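The calls of all 6 measured genes (Hoxc9, Hoxd1 and Hoxd3 higher, Hoxd4 lower, Hoxc4 and Hoxc8 within the cutoffs) held under each of 11 other settings, and a floor of 2 FPKM added after seeing the data, wherever the setting kept the gene. Other floors and the status filter leave the ratio of a kept gene unchanged, so those settings could not change its call. Only the pseudocounts, scalings and other cutoffs could do so. Log2 ratios ranged from 2.52 to 3.004 for Hoxc9, 1.46 to 1.71 for Hoxd1, 0.95 to 1.28 for Hoxd3 and -2.24 to -1.81 for Hoxd4. A floor of 5 FPKM in both samples left 3 members, by its construction, with 1 higher and 0 lower, and medians of -0.21 for all members, -0.44 for HoxC and 1.55 for HoxD, so the sign of the whole median depends on the floor. Over all genes 938 were then lower and 1156 higher, against 2087 and 2243. With genes above 0.5 FPKM in either sample and a pseudocount of 0.5, which adds Hoxc5, Hoxc6 and Hoxd8, 3 members were lower and 4 higher, and the medians were -0.20 for all members and -0.47 for HoxD; over all genes 3812 were lower and 3081 higher. A pseudocount of 1 gave a HoxD median of 0.95. The TPM scale, which shifts every ratio by 0.16, gave medians of 0.62 for all members, -0.051 for HoxC and 1.28 for HoxD, against 0.46, -0.21 and 1.13. No paired analysis was possible because each genotype has 1 sample. Every value lacks replicates, and depth as a limit was not tested.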
